A study of Ptychodera flava with 31 samples.

Results

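Of 35854 transcript models measured in the acorn worm Ptychodera flava, a hemichordate with a swimming tornaria larva, 17 were abundant in the unfertilized egg, were kept to the early blastula and were all but gone from the late gastrula and the later tornaria larvae. They were chosen from TPM (a share of all transcripts after correction for length) averaged per stage. A member had at least 20 TPM in the egg, at least 50% of that level in the early blastula, and at most 2% of it in the late gastrula and in each larval stage from Heider through Meschnikoff, Krohn and Spengel to Agassiz. Up to 200 could have been taken, and only 17 met the rule. These 8 stages chose the members, so that their values are given as a description, without tests. The other 8 stages, the 16-32 cell embryo, the late blastula, the early gastrula, both mid gastrula stages, the 72 hpf tornaria, the transforming larva and the adult, took no part in the choice.

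An egg carries messenger RNA made by the mother, and the early embryo lives on it before its own genome is transcribed at a high rate. During the maternal-to-zygotic transition these maternal messages are removed, some by factors already in the egg and some only after zygotic products have appeared. Messages that last into the blastula and vanish during gastrulation leave late in this hand-over. The poly(A) selection used for these libraries recovers messages with a tail, so that a change in tail length and a change in the amount of RNA cannot be told apart.

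All libraries were made from whole wild-type animals, 31 in all over 16 stages. The stages were the unfertilized egg, the 16-32 cell embryo, the early and late blastula, the early gastrula, the mid gastrula before and after mesoderm migration, the late gastrula, the tornaria at 72 hours post fertilization (hpf), the Heider, Meschnikoff, Krohn, Spengel and Agassiz tornaria, the transforming larva and the adult. There were 3 libraries for each of the early gastrula and the mid gastrula before migration, 1 each for egg, transforming larva and adult, and 2 for each of the other 11 stages. They are labelled biological replicates with no parents or cultures named, so a p-value here measures only how these samples spread, which may be technical. Totals ran from 11539946 to 17288661 estimated counts per library, and every level relative to the egg rests on its 1 library.

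Few of the egg transcripts that lasted to the early blastula met the late limits. Of 4445 models with at least 20 TPM in the egg, 3170 were at 50% or more in the early blastula, and 17 of these met the limits on the late stages. Another 50 egg transcripts met the late limits but were already under 50% in the early blastula. The nearest of these, TCONS_00013972 at 30315 TPM in the egg, stood at 49.9% of its egg level in the early blastula, and TCONS_00009594 at 49.3%. Just inside that limit were TCONS_00012880 at 53.1% and TCONS_00014983 at 56.5%. Without early blastula replicate 1, 13 models met the rule, and TCONS_00012880, TCONS_00014983, TCONS_00006476 and TCONS_00024719 were lost. The 2 early blastula libraries of TCONS_00024719 had 8.94 and 23.5 TPM, against 26.4 TPM in the egg. Those of TCONS_00006476 had 11.7 and 30.7 TPM, against 30.2 TPM. At the late limit, TCONS_00008677 reached 1.91% and TCONS_00027158 1.33% of the egg level at their highest late stage. TCONS_00037327 at 2.004% and TCONS_00027287 at 2.08% fell just outside. No candidate lay close to the egg minimum. The lowest members, TCONS_00024719 and TCONS_00012880, had 26.4 and 26.7 TPM, and the highest models below it that met the other limits had 7.59 TPM (TCONS_00057234) and 7.47 TPM (TCONS_00014117).

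The 17 models were 273 to 4976 bases long, with a median of 1980 against 1620 for all models and 1413 for models with at least 20 TPM in the egg. The 4 shortest, TCONS_00021892 of 273 bases, TCONS_00010708 of 312, TCONS_00012796 of 378 and TCONS_00027158 of 417, were under 500 bases. That is 23.5% of the members, against 9.12% of all models, 15.7% of models with at least 20 TPM in the egg and 18.0% of those also at 50% or more in the early blastula. None of the identifiers matched any of 38920 entries of the reference gene table, so no member has a gene name or a known function here. Estimated counts were whole numbers in all 31 libraries for 14 of the 17 members (82.4%), against 48.5% of all models, 70.4% of models with at least 20 TPM in the egg and 71.5% of those also at 50% or more in the early blastula. A fractional estimated count is one whose reads were shared among models, and such counts were seen for TCONS_00012796 (whole in 10 libraries), TCONS_00045255 (17) and TCONS_00047657 (28). The levels of these 3 are uncertain to that extent. Counts were deposited to 6 significant digits, so a count of 6 digits appears whole even where its reads were shared. Counts of TCONS_00010708 and TCONS_00012796 had 6 digits in every library up to the early blastula, such as 242688 and 130807 in the egg. For both models the tally therefore cannot tell whether reads were shared in those libraries.

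In the egg the 17 members held 24.0% of all TPM, nearly all of it in 2 short models. TCONS_00010708, at 173480 TPM, and TCONS_00012796, at 63668 TPM, were the most and the second most abundant models of the egg and together held 23.7% of TPM. The other 15 ranged from 26.4 to 476 TPM, ranked 176 to 3612 in the egg, and together held 0.273% of TPM. TPM gives short models weight: of the estimated counts, the 17 members held 3.45% in the egg (Wilson 95% interval 3.44 to 3.46, which covers counting error only).

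In bulk samples fewer cells of a type and less RNA per cell cannot be told apart, and this holds for every change reported here. The members' share of TPM stayed near the egg value for 2 stages and then dropped stage by stage. It was 20.7 ± 1.12% at the 16-32 cell stage and 21.0 ± 0.0884% in the early blastula (SD, n = 2 each), and 8.17 ± 1.03% in the late blastula (SD, n = 2). It was 1.04 ± 0.192% in the early gastrula and 0.170 ± 0.0303% in the mid gastrula before migration (SD, n = 3 each). After migration it was 0.0665 ± 0.00266%, and in the late gastrula 0.0307 ± 0.00512% (SD, n = 2 each). From the late blastula to the late gastrula, every library of a stage lay below every library of the stage before it. The drop was shared by the less abundant members. Without TCONS_00010708 and TCONS_00012796, the other 15 held 2914 and 2905 TPM at the 16-32 cell stage, 3635 and 3401 in early blastulae, 2669 and 2737 in late blastulae, 705, 894 and 731 in the early gastrula and 133, 96.9 and 121 in the mid gastrula before migration. The late blastula sum of these 15 was near the egg's 2734 TPM, but most of it came from 4 members above their egg level, TCONS_00045255, TCONS_00023656, TCONS_00027158 and TCONS_00048900. Of the 15, 9 were already under 50% of the egg level, as was each of the dominant models.

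**Figure D1:**
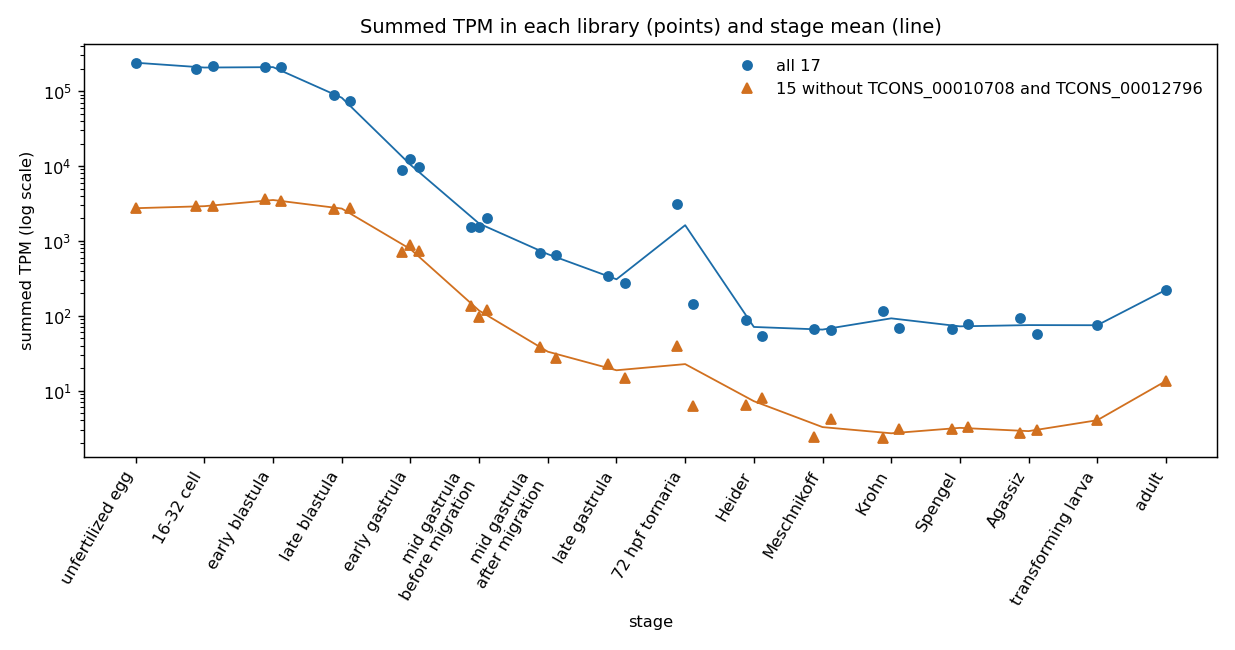
Summed TPM (log axis) of all 17 members (circles) and of the 15 members other than the 2 most abundant (triangles) in each of the 31 libraries, by stage, with a line through the stage means. Both sums drop from the late blastula to the late gastrula, and the 72 hpf tornaria libraries lie far apart, at 3096 and 146 TPM for all 17 together.

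The members differed in how they reached the blastula. By TPM, the egg held the peak of 5 members, the 16-32 cell embryo that of 8, and the early and the late blastula that of 2 each. At the 16-32 cell stage the median member was at 107% of its egg level, and 9 of 17 were above the egg, where the median of all models with at least 20 TPM in the egg was 123%. This direction depends on the scale: with counts scaled by the trimmed mean of M-values (TMM), a scaling that a few very abundant transcripts affect less, the median was 74.3% and 2 of 17 were above the egg. On that scale 13 of 17 were at 50% or more of the egg level in the early blastula. The most marked early gain was that of TCONS_00027158, which had 123 TPM in the egg, 599.5 and 572 TPM in the 16-32 cell libraries, 471 and 386 in the early blastula, then 407 and 478 in the late blastula. It was above its egg level on both scales, at 476% by TPM and 331% by TMM-scaled counts at the 16-32 cell stage. TCONS_00045255 had 476 TPM in the egg, 336 and 308 among 16-32 cell embryos, and 1018 and 1178 in the early blastula. TCONS_00008677 had 51.7 TPM in the egg, 56.9 and 53.3 among 16-32 cell embryos, and 151 and 112 in the early blastula.

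**Figure D2:**
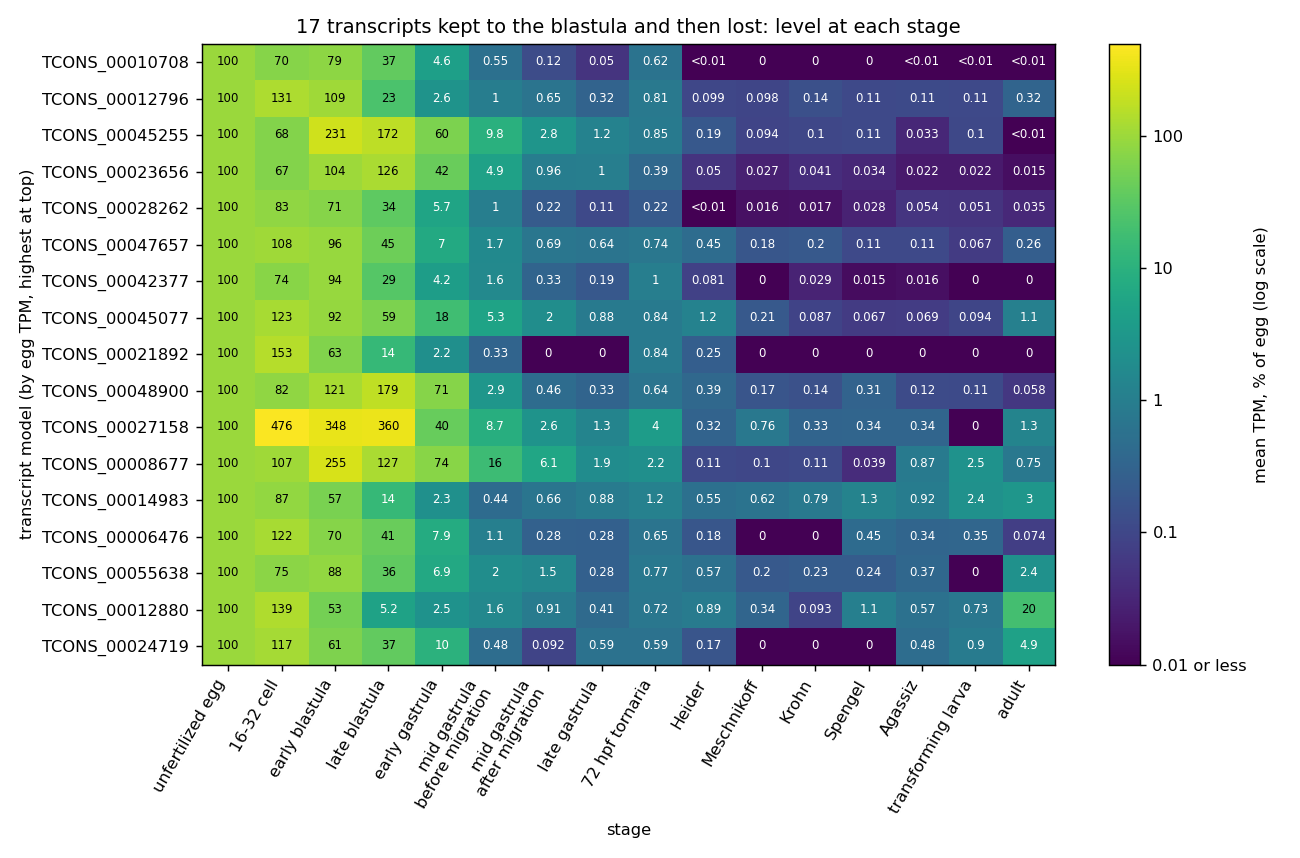
Mean TPM of each of the 17 members at each stage as a percentage of its egg TPM (numbers and colour, log scale), with members ordered by egg TPM from the top. Levels lie between 53.1 and 476% up to the early blastula, spread from 5.17 to 360% in the late blastula and lie at or below 1.91% in the late gastrula.

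The loss was timed with comparisons between stages that played no part in the choice, across all 30661 models that passed a filter on low counts, which all 17 members passed. Calls needed an adjusted p under 0.05 (Benjamini-Hochberg) in edgeR's quasi-likelihood test, with a fitted change of 2-fold or more. The rule makes every member lower in the late gastrula than in the early blastula, so a count of falls between these stages says at which step a member fell, and not that it fell.

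From the 16-32 cell stage to the late blastula, some members had begun to fall and one had risen. Of 17 members, 9 fell and 1 rose, where 18.0% of all tested models fell and 23.6% rose. The median member changed by -1.39 on the log2 scale, and the median of all tested models by 0.00. The count of 9 falls rests on single libraries: it was 5 without replicate 2 of the 16-32 cell stage and 5 without either late blastula library.

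The earliest to go was TCONS_00012880. It had 35.8 and 38.1 TPM in the 16-32 cell libraries and 2.08 and 0.680 TPM in the late blastula, which did not overlap. The fitted log2 fold change was -4.87 (SE 0.73, adjusted p = 1.06e-05). It was the only member under 10% of its egg level in the late blastula, at 5.17%. TCONS_00021892 had 236 and 278 TPM at the 16-32 cell stage and 28.0 and 18.4 TPM in the late blastula, a log2 fold change of -3.57 (SE 0.64, adjusted p = 0.000289). Its late blastula values stand on 26 and 17 counts. TCONS_00014983 had 32.8 and 28.0 TPM at the 16-32 cell stage and 5.64 and 3.98 in the late blastula, a log2 fold change of -2.79 (SE 0.41, adjusted p = 9.05e-06). TCONS_00012796, the second most abundant, had 82397 and 84516 TPM at the 16-32 cell stage and 16318 and 13391 in the late blastula. Its log2 fold change was -2.61 (SE 0.52, adjusted p = 0.000272). These 4 falls held under every alternative run.

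The other dominant model was not called at this step. TCONS_00010708 had 113768 and 127496 TPM at the 16-32 cell stage and 70036 and 58316 TPM in the late blastula. The libraries of both stages did not overlap, but the log2 fold change of -1.02 had a standard error of 0.97 (adjusted p = 0.443). This error rests on a spread estimated over all 31 libraries, and not on these stages alone. With only the libraries compared, 13 of 17 members had a fitted change below 0. By edgeR, 13 were lower there at an unadjusted p under 0.05, against 6606 of 17153 tested models. Under the limits for a call, 11 members were lower and 2 higher in that run. The missing call therefore does not show that the libraries of these stages varied widely.

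The member that rose was TCONS_00045255. It had 336 and 308 TPM at the 16-32 cell stage and 809 and 829.9 in the late blastula, with no overlap. The log2 fold change was 1.22 (SE 0.30, adjusted p = 0.0019), and the call held under every alternative run. TCONS_00048900 had 133 and 139.9 TPM at the 16-32 cell stage and 306 and 289.6 in the late blastula. Its log2 fold change of 0.99 (SE 0.36, adjusted p = 0.0298) missed the 2-fold limit. TCONS_00023656 had 291 and 296 TPM at the 16-32 cell stage and 495 and 606 in the late blastula, a log2 fold change of 0.77 (SE 0.51, adjusted p = 0.243). With TCONS_00027158 and TCONS_00008677, these were the 5 members above their egg level in the late blastula by TPM. By TMM-scaled counts 3 were above it.

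Most members fell between the late blastula and the early gastrula. Of 17 members, 15 fell and none rose, where 2.59% of all tested models fell and 6.28% rose. The median member changed by -2.60 on the log2 scale, against 0.01 for all tested models. The members' changes lay between -3.35 and -0.99. The number called lay between 12 and 15 with any 1 library left out.

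TCONS_00027158 fell most at this step. It had 407 and 478 TPM in the late blastula and 41.7, 72.5 and 34.0 TPM in the early gastrula. Its log2 fold change was -3.35 (SE 0.45, adjusted p = 2.68e-05). TCONS_00012796 had 16318 and 13391 TPM in the late blastula and 1439, 1932 and 1655 TPM in the early gastrula. Its log2 fold change was -3.33 (SE 0.46, adjusted p = 3.92e-05). TCONS_00047657 had 162 and 146 TPM in the late blastula and 22.5, 30.7 and 18.1 TPM in the early gastrula. The log2 fold change was -2.90 (SE 0.44, adjusted p = 0.000103). TCONS_00028262 had 149 and 137 TPM in the late blastula and 16.8, 20.8 and 34.4 TPM in the early gastrula. The fitted log2 change was -2.79 (SE 0.45, adjusted p = 0.000198). These 4 falls held under every alternative run.

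TCONS_00010708 fell with a wide error, which rests on a spread estimated over all 31 libraries. It had 70036 and 58316 TPM in the late blastula and 6791, 9746 and 7314 TPM in the early gastrula, where it ranked between the fifth and the seventh most abundant model of a library. The log2 fold change was -3.19 (SE 0.89, adjusted p = 0.0222). The call was lost without either late blastula library (adjusted p = 0.0811 and 0.0637) and without early gastrula replicate 1 or 3 (adjusted p = 0.0772 and 0.0695). The fold stayed between -3.33 and -3.10 in these fits.

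Of the 5 members above their egg level in the late blastula, 4 fell here and TCONS_00008677 was not called. They were still the 5 highest relative to the egg in the early gastrula. TCONS_00045255 had 809 and 829.9 TPM in the late blastula and 277, 284 and 291 TPM in the early gastrula, a log2 fold change of -1.74 (SE 0.27, adjusted p = 0.000116). TCONS_00048900 had 306 and 289.6 TPM in the late blastula and 115, 162 and 80.4 TPM in the early gastrula, a log2 fold change of -1.52 (SE 0.32, adjusted p = 0.00257). Both calls held under every alternative run. The members not called were TCONS_00008677 and TCONS_00012880. With replicate number as a block, edgeR called both (adjusted p = 0.00989 and 0.0251). Only 2 replicate numbers are shared at this step, too few to take them as pairing. TCONS_00008677 had 77.0 and 53.7 TPM in the late blastula and 31.5, 26.1 and 57.2 TPM in the early gastrula. Its TPM ranges overlapped, and its log2 fold change was -0.99 (SE 0.31, adjusted p = 0.0368), just short of 2-fold. TCONS_00012880, already low, had 2.08 and 0.680 TPM in the late blastula and 0.502, 0.177 and 1.34 TPM in the early gastrula.

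By the early gastrula the members had spread widely. The median was 7.02% of the egg level by TPM and 3.88% by TMM-scaled counts. By TPM, 10 of 17 were under 10% of the egg level, and 3 were still at 50% or more. These were TCONS_00008677 at 74.1 ± 32.2%, TCONS_00048900 at 71.5 ± 24.5% and TCONS_00045255 at 59.7 ± 1.48% of the egg TPM (SD, n = 3 each). By TMM-scaled counts none of the 17 was at 50% or more, and the highest was at 40.4%.

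In the next step, to the mid gastrula before mesoderm moved, 14 of 17 members fell and none rose, where 1.73% of all tested models fell and 7.65% rose. The median change was -2.34 on the log2 scale, against 0.00 for all tested models. The largest changes were those of TCONS_00048900 and TCONS_00024719. TCONS_00048900 had 115, 162 and 80.4 TPM in the early gastrula and 6.15, 3.31 and 5.28 TPM in the mid gastrula, a log2 fold change of -4.65 (SE 0.35, adjusted p = 1.58e-08). TCONS_00023656 had 153, 242 and 158 TPM in the early gastrula and 30.1, 17.2 and 16.9 TPM in the mid gastrula, a log2 fold change of -3.15 (SE 0.45, adjusted p = 4.13e-05). TCONS_00045255 had 277, 284 and 291 TPM in the early gastrula and 60.3, 35.6 and 44.0 TPM in the mid gastrula, a log2 fold change of -2.65 (SE 0.26, adjusted p = 3.25e-07). TCONS_00008677, not called at the step before, had 31.5, 26.1 and 57.2 TPM in the early gastrula and 6.48, 8.44 and 10.5 TPM in the mid gastrula. It fell by 2.21 on the log2 scale (SE 0.30, adjusted p = 2.06e-05). TCONS_00024719 had 2.33, 2.05 and 3.81 TPM in the early gastrula and 0.105, 0.102 and 0.173 TPM in the mid gastrula. The fitted log2 change was -4.39 (SE 0.70, adjusted p = 0.000219), and the lower values stand on 2, 2 and 4 counts. These 5 calls held under every alternative run.

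The dominant models fell at this step as well, with calls that were lost when some single libraries were left out. The spread behind these calls was estimated over all 31 libraries. TCONS_00010708 had 6791, 9746 and 7314 TPM in the early gastrula and 879, 565 and 1407 TPM in the mid gastrula, a log2 fold change of -3.11 (SE 0.85, adjusted p = 0.0159). Without mid gastrula replicate 1 its adjusted p was 0.0589, and without replicate 2 it was 0.0753. TCONS_00012796 had 1439, 1932 and 1655 TPM in the early gastrula and 518, 864 and 525 TPM in the mid gastrula, a log2 fold change of -1.43 (SE 0.41, adjusted p = 0.0181). Its adjusted p was 0.0685 without early gastrula replicate 2, and 0.0751 and 0.0744 without mid gastrula replicates 1 and 3. The members not called were TCONS_00042377 (adjusted p = 0.123), TCONS_00021892 (adjusted p = 0.103) and TCONS_00012880 (adjusted p = 0.579). In the mid gastrula TCONS_00021892 was at 0, 0 and 2 counts, and 0 counts allow up to 3.10 and 2.94 TPM for this short model (limits of 3 counts, counting error only).

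**Figure D3:**
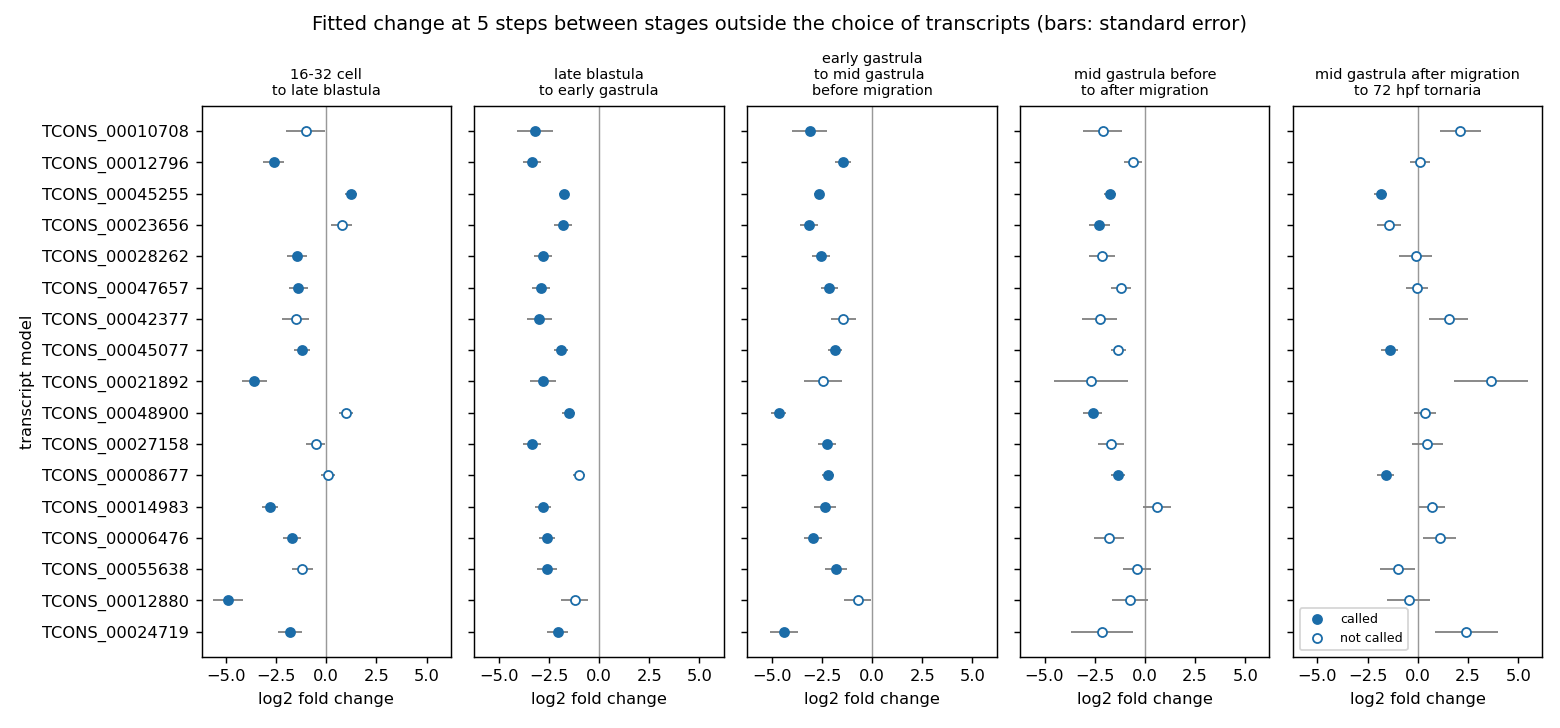
Fitted log2 fold change (second stage over first, with standard error) of the 17 members at 5 steps between stages outside the choice, with filled points for changes called at adjusted p under 0.05 and at least 2-fold. Called falls number 9, 15, 14, 4 and 3 from the left panel to the right, and the only called rise is TCONS_00045255 in the left panel.

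Across mesoderm migration few members could still be called. Of 17 members, 4 fell and none rose, where 0.554% of all tested models fell and 2.39% rose. The 4 were among the 6 members highest relative to the egg before migration, TCONS_00048900 (log2 fold change -2.61, SE 0.46, adjusted p = 0.00222), TCONS_00023656 (-2.28, SE 0.53, adjusted p = 0.0155), TCONS_00045255 (-1.75, SE 0.29, adjusted p = 0.00137) and TCONS_00008677 (-1.36, SE 0.35, adjusted p = 0.0303). TCONS_00048900 had 6.15, 3.31 and 5.28 TPM before migration and 1.00 and 0.534 TPM after it. TCONS_00045255 had 60.3, 35.6 and 44.0 TPM before and 14.96 and 11.5 TPM after. Of the 17, 16 had a fitted change below 0, and the median was -1.75, against 0.00 for all tested models. The exception was TCONS_00014983 at 0.59 (SE 0.69, adjusted p = 0.735), on 6 counts before and 6 after in all libraries together. The count of 4 rests on the libraries after migration, which are numbered 2 and 3. It was 2 without replicate 2 and 0 without replicate 3, where edgeR's test gave 5 members, and 3.96% of all tested models, lower at an unadjusted p under 0.05. With all libraries, 11 members were lower at that level by edgeR, against 9.43% of all tested models. None of the 4 calls held under every alternative run.

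Over these 4 steps, 10 members were called lower at 3 steps, 5 at 2 and 2 at 1. The same tally was not made over all tested models, and the rule itself fixes a fall between the early blastula and the late gastrula. The order of loss can be read from the stage at which the mean TPM first passed below 10% of the egg level. That was the late blastula for TCONS_00012880, the early gastrula for 9 members, the mid gastrula before migration for 6 and the mid gastrula after migration for TCONS_00008677. The pair of dominant models belonged to the 9. By TMM-scaled counts every member was already under 10% in the mid gastrula before migration, the highest at 8.71%. In the late gastrula, where the rule applies, levels were 0 to 1.91% of the egg, with a median of 0.415%.

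The 72 hpf tornaria was not used in the choice, and its 2 libraries differed for every member. All 17 members were higher in replicate 1, the least supported being TCONS_00021892 at 3 against 0 counts. With 0 counts in replicate 2 set to 3, 9 of them were higher by at least 5-fold. Among all models with at least 20 TPM in the egg, 58.0% were higher in replicate 1 and 1.08% by at least 5-fold on the same terms. Among the 174 of these already at 10% or less of the egg level in the early blastula, the shares were 64.9% and 10.9%. TCONS_00010708 had 135 and 38.8 TPM in the late gastrula, 2151 and 16.4 TPM in the tornaria, and 0.648 and 0 TPM in Heider larvae. TCONS_00012796 had 186 and 217 TPM in the late gastrula, 906 and 123 TPM in the tornaria, and 80.2 and 46.4 TPM in Heider larvae. TCONS_00027158 had 2.29 and 0.983 TPM in the late gastrula and 9.73 and 0 TPM in the tornaria. The median member was at 1.24% of its egg level in tornaria replicate 1 and at 0.157% in replicate 2. The labels set neither library apart. Whether replicate 1 also holds RNA of earlier embryos was not tested, so its TPM values may not be those of 72 hpf larvae alone.

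**Figure D4:**
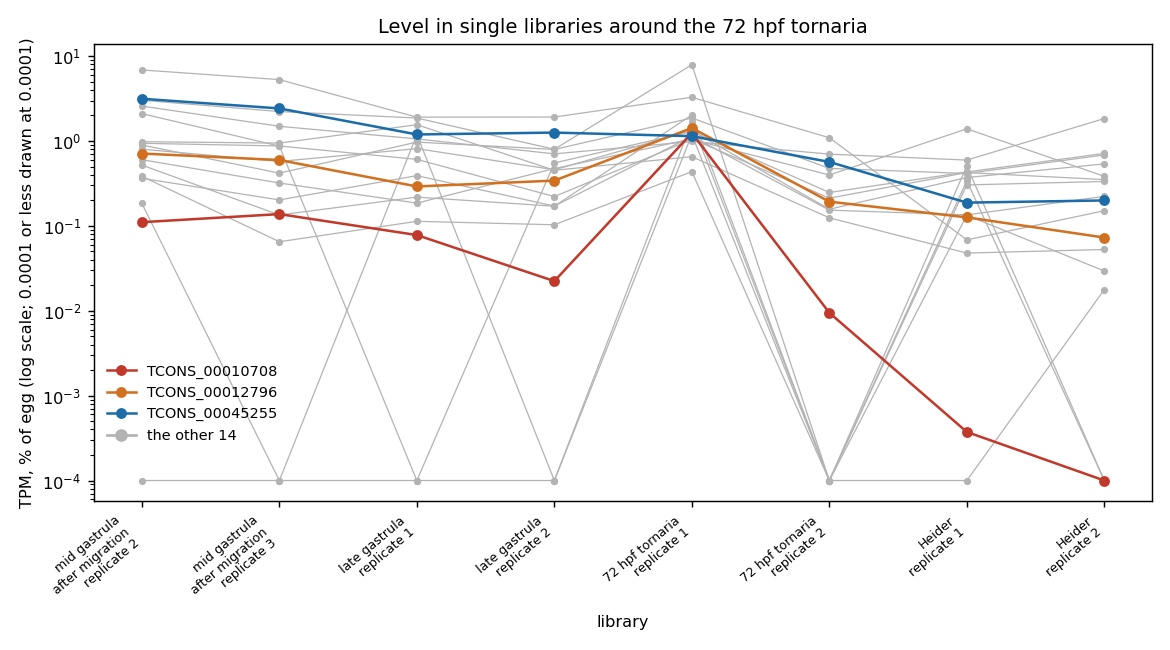
TPM of each of the 17 members as a percentage of its egg TPM (log axis, with 0.0001 or less drawn at 0.0001) in the 8 single libraries from the mid gastrula after migration to Heider larvae. Tornaria replicate 1 lies above replicate 2 for all 17, as in TCONS_00010708 (red) at 2151 against 16.4 TPM.

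A comparison of the tornaria with the mid gastrula after migration therefore depends on which tornaria library is used. With both, 3 members fell, TCONS_00045255, TCONS_00008677 and TCONS_00045077, and none rose, where 5.34% of all tested models fell and 10.4% rose. Over all tested models that was 1638 falls and 3178 rises by edgeR, and 1215 and 3860 by the DESeq2 Wald test. Without replicate 1 of the tornaria 8 members fell and none rose, where 4.05% of all tested models fell and 8.11% rose. Without replicate 2 of the tornaria 1 fell, and TCONS_00010708 and TCONS_00042377 rose (log2 fold changes 3.10 and 2.47, adjusted p = 0.000605 and 0.0229), where 4.05% of all tested models fell and 8.29% rose. Without replicate 2 of the mid gastrula, 1 member fell and none rose, where 4.37% of all tested models fell and 6.47% rose. TCONS_00010708 thus changed direction with the library, at -3.83 without replicate 1 (adjusted p = 0.00149). Only the fall of TCONS_00045255 held under every alternative run. It had 14.96 and 11.5 TPM in the mid gastrula and 5.43 and 2.70 TPM in the tornaria, a log2 fold change of -1.85 (SE 0.32, adjusted p = 0.000249). The call of TCONS_00008677 (adjusted p = 0.0085) was lost without tornaria replicate 2 (adjusted p = 0.124) and without mid gastrula replicate 2 (adjusted p = 0.0576). The call of TCONS_00045077 (adjusted p = 0.0226) was lost without either tornaria library and without mid gastrula replicate 2, with an adjusted p of up to 0.204.

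In the 5 later tornaria stages, which are part of the rule, most members were at or near 0. TCONS_00010708, the most abundant transcript of the egg at 242688 counts, had 0 counts in all 6 Meschnikoff, Krohn and Spengel libraries and at most 2 in each Heider and Agassiz library. TCONS_00012796 stayed measurable. It ranged from 46.4 to 114 TPM over the 10 libraries and ranked 1374 to 3280, although that is 0.0976 to 0.141% of its egg level by stage mean. Its counts were fractional in all 10 of these libraries, so its reads there were shared among models.

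The transforming larva and the adult, 1 library each, took no part in the choice. In the transforming larva no member was at 10% or more of its egg level, and the highest was TCONS_00008677 at 2.45%. In the adult 1 of 17 was, against 84.7% of the models with at least 20 TPM in the egg and 43.7% of the 174 such models that were at 10% or less in the early blastula. The median member stood at 0.0941% of the egg in the former and 0.257% in the latter. The median model with at least 20 TPM in the egg stood at 59.1% and 44.6%. These are not like sets, since the members had to be at most 2% up to Agassiz and the other models did not. Of the 4445 models, 1761 were at 50% or more in the early blastula and in each of the 6 late stages of the rule.

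The one member back above 10% was TCONS_00012880, by TPM the earliest to be lost. It had 26.7 TPM in the egg, 0.195 TPM in the transforming larva and 5.26 TPM in the adult, from 4 and 103 counts, and 0 to 0.424 TPM in the 10 later tornaria libraries. The adult was at 19.7% of the egg by TPM and at 8.97% by TMM-scaled counts, so that by the latter no member reached 10%. Its ratio of adult to transforming larva was 26.9, with an exact 95% interval of 10.2 to 101 that covers counting error only. TCONS_00045077 had 0.164 and 1.96 TPM from 9 and 103 counts, a ratio of 11.99 (interval 6.08 to 27.0). TCONS_00024719 had 0.237 and 1.29 TPM from 5 and 26 counts, a ratio of 5.44 (2.05 to 18.1). TCONS_00012796 had 69.3 and 206 TPM, a ratio of 2.98 (2.47 to 3.63). Its count was whole in the adult but fractional in the transforming larva, so the ratio rests in part on shared reads. TCONS_00027158 had 0 and 4 counts, at least 1.36-fold higher in the adult with 3 counts set in the larva.

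With 0 larval counts set to 3, 4 of 17 members (23.5%) were at least 2-fold higher in the adult, at 1 TPM or more. The share of all models was close to that, at 19.1%. It was 5.76% for models with at least 20 TPM in the egg. For the 174 such models at 10% or less in the early blastula it was 13.2%. These too are not like sets. By TPM as listed, TCONS_00027158 made the count of members 5, against 19.5% of all models. Another 2 members were higher in the adult but below 1 TPM there. TCONS_00047657 had 0.227 and 0.870 TPM from 6 and 22 counts, a ratio of 3.84 (1.51 to 11.6). TCONS_00055638 had 0 and 10 counts, at least 3.48-fold higher with 3 counts set in the larva. TCONS_00008677 was lower, at 1.27 TPM in the transforming larva and 0.390 TPM in the adult, a ratio of 0.308 (0.136 to 0.637). TCONS_00045255 had 22 and 2 counts, a ratio of 0.0952 (0.0109 to 0.387). TCONS_00042377 and TCONS_00021892 had 0 counts in both, which allows up to 0.203 and 2.77 TPM in the adult. With 1 library per stage these differences have no replicate check.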

How the data were processed

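Estimated counts per transcript model (expected counts, 1 deposited table per library) and the TPM computed by the authors were used as deposited. Per the file headers the tables also hold 2 other columns, the length and effective length of each model. The submitters' processing notes name kallisto and edgeR. Versions, genome build and model source: not given in the sources used here. Per the labels' protocols, RNA was poly(A)-selected and libraries were strand-specific. Stage and replicate number come from the sample titles. The titles call the mid gastrula stages mid1 and mid2, given here as before and after mesoderm migration. File names number the libraries after migration otherwise than the titles, and the titles were used.

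Members were found by the stated rule on mean TPM per stage. The members and the comparisons were chosen with earlier results of these data known. Rounded to whole numbers, the estimated counts were tested with edgeR 4.0.16 and limma 3.58.1 under R 4.3.3. filterByExpr by stage left 30661 models, and TMM factors ran from 0.604 to 1.34. The quasi-likelihood fit used all 31 libraries, a mean for each stage and a trended dispersion, leaving 15 residual degrees of freedom. It was also run on counts simulated with its own dispersions. That run checked the sign and size of known changes, and is no check of the p-values here. Adjusted p-values are Benjamini-Hochberg over all tested models. A stage left with 1 library was assumed to vary like the others. Fold changes are on the scale of TMM-scaled counts, levels in TPM with the SD between libraries. Each standard error was derived from the test, as the absolute log2 fold change over the square root of its F statistic. Whole counts were within 1e-06 of a whole number, as deposited to 6 significant digits. Models named in detail follow a fixed rule: the 8 members with the highest egg TPM, at each step the 2 largest falls and the largest rise or smallest fall, the 3 highest in the adult and the 2 highest in the transforming larva and in the 72 hpf tornaria, the 3 highest and 3 lowest in the late blastula relative to the egg, and the 2 models on each side of each threshold. TCONS_00006476 and TCONS_00055638, outside it, were picked after their values were seen.

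Same-numbered early gastrula and mid gastrula libraries before migration deviated together from their stage means (r = 0.409, 0.627 and 0.707 for the 3 numbers across models), so these numbers were taken as pairing libraries. With replicate number as a block, the call of every member at that step was the same. Other alternatives were DESeq2 1.42.0 (Wald test, and its size factors in the edgeR fit), no low-count filter, edgeR without a trended dispersion, only the libraries compared, adjusted p alone, and each library left out. Tables and plots were made in Python 3.11.15 (matplotlib 3.10.9, SciPy 1.17.1, pandas 2.3.3, numpy 2.4.6).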

Additional observations from a re-analysis of the deposited data

How the results depend on the processing

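The number of models meeting the rule moved with its thresholds: 31 with an early blastula minimum of 25% and 11 with 75%, 32 with a late maximum of 5% and 10 with 1%, and 11 when the 72 hpf tornaria, transforming larva and adult also had to be at most 2%. Leaving out single libraries gave 13 to 21. With the rule on TMM-scaled counts 22 models met it, of which 13 are among the 17. Members called lower ranged, with 1 library left out, from 5 to 8 (16-32 cell to late blastula), 12 to 15 (late blastula to early gastrula), 11 to 14 (early to mid gastrula before migration), 0 to 4 (across migration) and 1 to 8 (mid gastrula after migration to tornaria). By TMM-scaled counts 0 members reached 10% of the egg level in the adult, against 1. With the replicate number as a block, a pairing taken as given only for the early and mid gastrula, 10, 17, 14, 5 and 4 members were called lower at the 5 steps. Of all 30661 tested models, 5579, 761, 569, 288 and 1981 were called lower. The block ended no call of a member. From the late blastula to the early gastrula, whose same-numbered libraries correlate at 0.545 with only 2 numbers shared, it added TCONS_00008677 (-1.18, adjusted p = 0.00989) and TCONS_00012880 (-2.06, adjusted p = 0.0251). From the mid gastrula after migration to the tornaria, DESeq2 size factors moved the median of all models from 0.03 to 0.17 on the log2 scale, and the members' median from 0.12 to 0.26. Over all tested models, falls across migration numbered 170, against 436 by the DESeq2 Wald test, 288 with the block and 83 with only the libraries compared. At the steps into the early and the mid gastrula, only the libraries compared gave 474 against 794 falls and 334 against 530.

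Fitted changes that were not called changed sign as follows, with log2 values over the fits that leave out 1 library. To the late blastula, TCONS_00008677 ran from -0.20 to 0.32. From the early to the mid gastrula TCONS_00012880 ran from -2.09 to 0.32. Across migration TCONS_00012880 ran from -1.21 to 0.64 and TCONS_00055638 from -1.07 to 0.0296. To the tornaria the ranges were -0.94 to 1.81 (TCONS_00006476), -3.83 to 3.10 (TCONS_00010708), -1.88 to 0.92 (TCONS_00012796), -1.26 to 0.0166 (TCONS_00012880), -0.54 to 1.31 (TCONS_00014983), -2.38 to 4.79 (TCONS_00024719), -6.10 to 1.39 (TCONS_00027158), -6.78 to 1.54 (TCONS_00028262), -6.61 to 2.68 (TCONS_00042377), -2.22 to 0.77 (TCONS_00047657) and -1.20 to 1.03 (TCONS_00048900). At that step the replicate block gave -0.19 for TCONS_00012796 and 0.44 for TCONS_00012880, the DESeq2 Wald test 0.0016 for TCONS_00028262 and 0.0909 for TCONS_00047657, DESeq2 size factors 0.0392 and 0.108 for these, and only the libraries compared 0.0369 for TCONS_00047657. The cause was not tested. TCONS_00021892, at 0 counts in both stages of some fits, gave no value there. Levels under 3 counts, common from the late gastrula on, limit what can be said of single members.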

Other observations

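Levels in 72 hpf tornaria replicate 1 were set against each earlier stage. As a percentage of the egg level the 17 members ran from 0.436 to 7.91% (median 1.24%), and as a percentage of the early blastula level from 0.494 to 3.31% (median 1.47%). Both of these stages are part of the rule that chose the members, which bounds one by the other. Against the 16-32 cell stage, which took no part in the choice, they ran from 0.524 to 3.07% (median 1.22%), and against the late blastula, also outside the rule, from 0.517 to 20.1% (median 2.91%). Medians were 18.7% against the early gastrula, 79.2 and 206% against the mid gastrula before and after migration, and 286% against the late gastrula. The last 2 cover 16 members. Members between 0.5 and 2% numbered 13 against the egg, 14 against the 16-32 cell stage and 12 against the early blastula. They numbered 5 against the late blastula, 3 against the early gastrula and 0 against each later gastrula stage. The members' own fall makes the percentages against later stages larger, and the tally was not made for other models. In replicate 2 the levels ran from 0 to 1.02% of the 16-32 cell level, with a median of 0.147%. Members share the libraries behind each percentage, no test was made, and the values were picked after they were seen.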
